A study of Mus musculus with 6 samples.

Results

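The genes described here were the homeobox genes of the 4 mouse Hox clusters in undifferentiated embryonic stem cells (mESCs) with and without Alkbh1, a member of the AlkB family of dioxygenases. They were chosen by name, as every row of the deposited table of probe sets whose gene symbol was Hox, a cluster letter and a number. This gave 18 probe sets for 14 genes among 33142 probe sets in the table. A probe set is a group of short probes on the array that together measure one transcript or a few related ones. Where a gene had several probe sets, the brightest stood for it.

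The WT and Alkbh1-/- mESCs were of the C57BL/6 strain and were analysed at passage 8 and day 0, with 3 arrays per genotype and 6 in all. Both genotypes were kept undifferentiated with leukemia inhibitory factor and received no treatment. Both were derived from littermate blastocyst-stage embryos of heterozygous matings and shared a feeder layer of irradiated CF-1 mouse embryonic fibroblasts, per the study's methods. The labels number the arrays within a genotype but do not say whether they came from separate lines or cultures. Single-array signals were not used here. The table gives 1 mean per probe set over all 6 arrays, as a log2 value, and a second table gives 1 mean per genotype for a selected group of probe sets, so no level below has an SD and no difference was tested. Precision is limited by the small number of arrays.

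Hox genes encode transcription factors that give cells their position along the body axis and in the limbs. They lie in 4 clusters, HoxA to HoxD, and genes with the same number in different clusters are paralogs, descended from 1 ancestral gene. Low numbers are used toward the head and high numbers toward the tail, and the genes are switched on in that order as the embryo grows. In mESCs the clusters are known to be held silent by Polycomb complexes, while their CG-rich promoters also carry the activating mark of trithorax complexes.

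Promoter sequences were available for 8 of the 14 genes in the RefSeq annotation of build GRCm38.p6, as the 250 bases before the transcription start. Since CG-rich promoters are where Polycomb is known to bind, the CG dinucleotides were counted in them. The 8 Hox promoters held between 3 and 31, with a median of 12.5, whereas the median over all 32851 promoter windows was 6. More than this median was found in 7 of the 8 Hox promoters and in 46.3% of all windows. The last 100 bases before the start are shown for the Hox promoter with the most CG, for that with the fewest and for Hoxa3, whose probe sets return below. They run 5′ to 3′ on the strand of the gene, with each CG in capitals.
Hoxd13 (chr2:74668125-74668224, plus strand): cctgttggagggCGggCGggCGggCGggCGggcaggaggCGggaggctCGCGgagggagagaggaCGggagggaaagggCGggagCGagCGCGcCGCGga
Hoxa3 (chr6:52213068-52213167, minus strand): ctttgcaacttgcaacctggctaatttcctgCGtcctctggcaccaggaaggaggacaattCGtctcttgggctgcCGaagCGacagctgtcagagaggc
Hoxa9 (chr6:52227371-52227470, minus strand): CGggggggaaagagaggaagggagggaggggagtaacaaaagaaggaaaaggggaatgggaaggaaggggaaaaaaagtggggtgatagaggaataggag

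The Hoxd13 promoter had 31 CG in its 250 bases, a count reached by 5.19% of all windows, and 15 of them lie in the bases shown. Hoxa3 had 18, reached by 21.7% of windows, and 4 of these are shown. Hoxa9 had 3, reached by 71.0%, with 1 shown. Among the other 5 genes, Hoxb4 had 14, Hoxa11 13, Hoxd3 12, Hoxc4 8 and Hoxa7 7 CG. These counts describe the annotated start only, and neither methylation nor factor binding was measured here.

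Of the 14 Hox genes, 13 lay below the median of the table, which was 6.31 on the log2 scale. The 14 means ran from 3.92 to 6.45, with a median of 5.13. For comparison, the whole table ran from 3.22 to 14.67, and its middle 50% lay between 4.80 and 8.38. Of the 13 genes below the median, 2 lay below the 25th percentile and the other 11 between that percentile and the median. Over all 18 probe sets, 17 lay below the median. The brightness of a probe set also depends on its probes, so the order of these means is not an order of RNA abundance, and a mean near the low end is not proof that a transcript was absent. The median itself depends on which probe sets the authors kept in the table, by a filter not given in the sources used here.

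**Figure D1:**
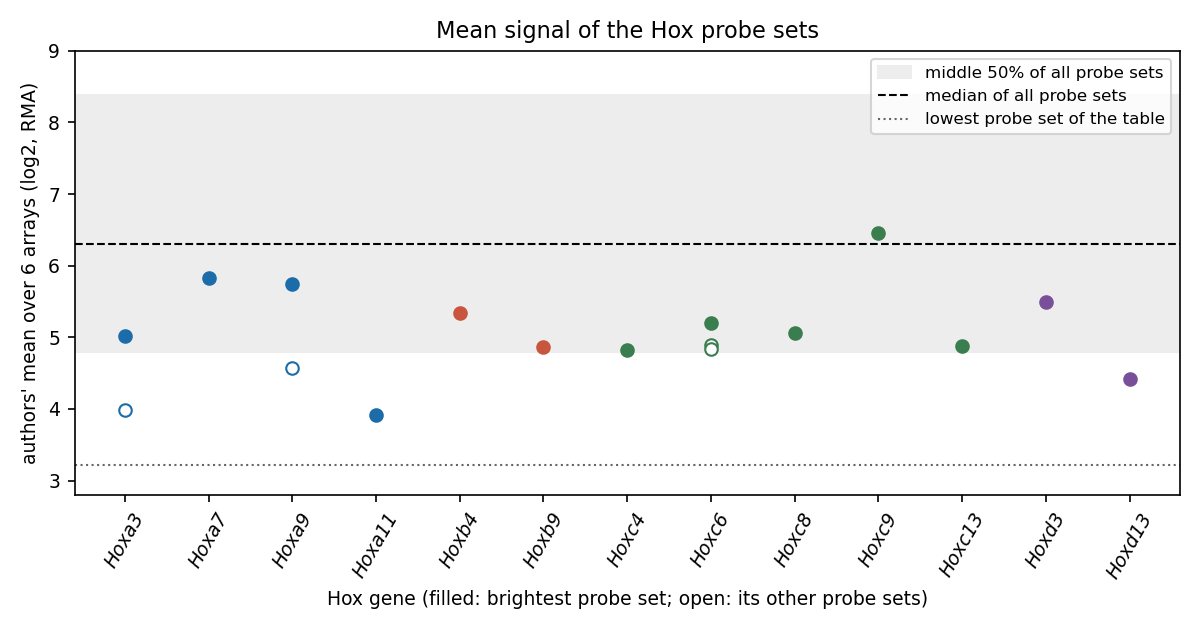
Mean log2 signal over all 6 arrays (vertical axis) of 17 of the 18 Hox probe sets, by gene along the horizontal axis and coloured by cluster, where filled points are the brightest probe set of a gene and open points its other probe sets. Only Hoxc9, at 6.45, lies above the dashed line, which marks the table median of 6.31; the grey band spans the middle 50% of all probe sets and the dotted line the lowest probe set.

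All 5 HoxA genes found by their symbol lay below the table median, between 3.92 and 5.83. Hoxa3, which acts in the neck and in the organs formed from the pharyngeal arches, had a mean of 5.02 at its brighter probe set. Hoxa7 belongs to the group of middle genes used in the trunk. Among the 14 genes found by symbol, its 5.83 was the closest to the table median from below, with 43.3% of all probe sets dimmer. Hoxa9, which is also active in blood stem cells, had a mean of 5.75. Hoxa11, a posterior gene of the forearm, kidney and uterus, was measured by 1 probe set at 3.92, a level with only 4.46% of all probe sets below it.

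The HoxB cluster was represented by 2 genes, both below the median. Hoxb4, known for its effect on the expansion of blood stem cells, had a mean of 5.34. Hoxb9, a gene of the thoracic region, had a mean of 4.86. The HoxD cluster likewise had 2 genes, both below the median. Hoxd3, which shapes the first neck vertebrae, had a mean of 5.50. Hoxd13, at the posterior end of the cluster and needed for the digits, had a mean of 4.42, with 17.0% of probe sets dimmer.

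In the HoxC cluster 4 of 5 genes lay below the median. Hoxc4 had a mean of 4.82 and Hoxc6 of 5.20; both act in the lower neck and upper trunk. Hoxc8, which patterns the thoracic skeleton and the motor neurons of the forelimb, had a mean of 5.06. Hoxc13, the last gene of the cluster and a regulator of hair keratins, had a mean of 4.88. Hoxc9, which is used in thoracic motor neurons, was the exception, its 1 probe set (1449867_at) having a mean of 6.45, or 0.15 above the table median, with 52.0% of probe sets dimmer. Hoxc9 therefore lay close to the middle of the table rather than among its bright probe sets. Against a median over 1 probe set per gene, 7.28, or over probe sets with a symbol, 6.85, Hoxc9 too was on the low side.

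By paralog number, the genes in the table were spread from anterior to posterior groups. Groups 6, 7, 8 and 11 held 1 gene each, namely Hoxc6, Hoxa7, Hoxc8 and Hoxa11. Group 3 held Hoxa3 and Hoxd3, group 4 held Hoxb4 and Hoxc4, and group 13 held Hoxc13 and Hoxd13. In all of these groups each gene lay below the median. Group 9 held Hoxa9, Hoxb9 and Hoxc9, with means from 4.86 to 6.45, with a gene on either side of it. No row with a Hox symbol belonged to groups 2, 5, 10 or 12. Clusters and groups hold 5 genes or fewer, so no trend along the clusters was read from these means.

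Under the deposited symbols, several probe sets were available for 3 of the 14 genes and 1 for each of the other 11. The 2 probe sets of Hoxa9 differed by 1.17 on the log2 scale, with means of 5.75 and 4.58. Those of Hoxa3 differed by 1.04, with means of 5.02 and 3.98. The 3 probe sets of Hoxc6 lay closer together, between 4.83 and 5.20. For Hoxa3 and Hoxa9 the distance between probe sets of 1 gene was larger than the SD over the 14 genes, 0.62. In each of these 3 genes every probe set stayed below the table median.

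The symbols of the table are old and partly empty. RefSeq lists 39 mouse Hox genes. Rows were also named through RefSeq, by gene ID or else by another name in the row. This gave 30 probe sets of 22 of these genes. The 8 genes gained were Hoxa5, Hoxb2, Hoxb3, Hoxb6, Hoxb13, Hoxc5, Hoxd8 and Hoxd9. Their means ran from 3.87 for Hoxb6 to 5.94 for Hoxa5, and all 8 lay below the table median. Hoxa5, a gene of the lung and lower neck, came nearest to it. With these names 21 of 22 Hox genes were below the median, and Hoxc9 was again the gene above it. No row was named for the other 17 genes, which were Hoxa2, Hoxa4, Hoxa6, Hoxa10, Hoxa13, Hoxb1, Hoxb5, Hoxb7, Hoxb8, Hoxc10, Hoxc11, Hoxc12, Hoxd1, Hoxd4, Hoxd10, Hoxd11 and Hoxd12; these were not analysed here.

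**Figure D2:**
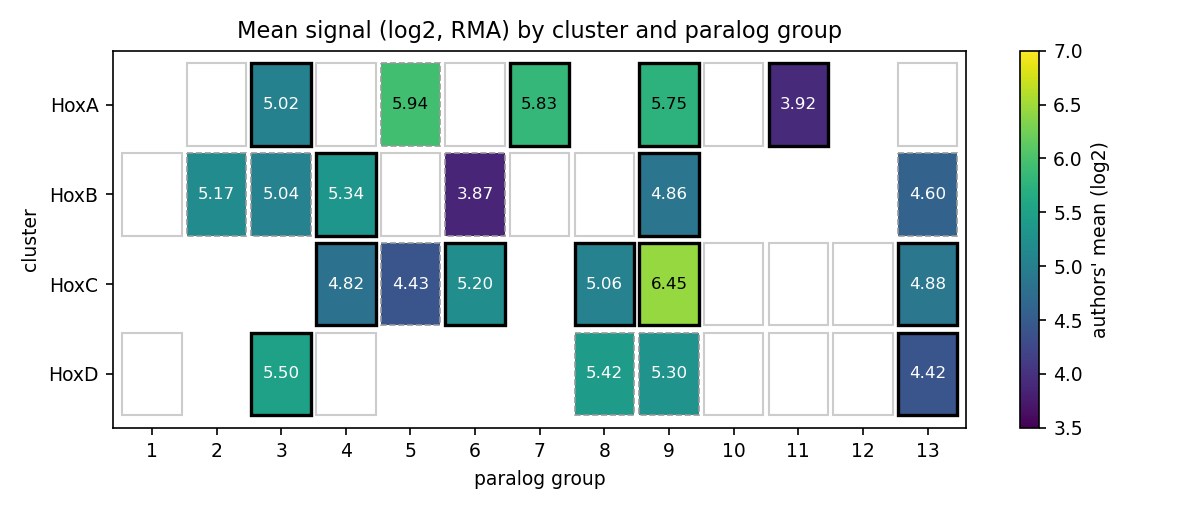
Mean log2 signal over all 6 arrays, as colour and number, for each Hox gene by cluster (rows) and paralog group (columns). Thick frames mark 13 of the 14 genes found by their deposited symbol, and dashed frames the 8 found through RefSeq names. Empty boxes are the 17 genes with no row here, and places left blank have no gene or none that is reported here. The value in Hoxc9, 6.45, is the one above the table median of 6.31.

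The next question was whether the Hox genes differed between WT and Alkbh1-/- mESCs. Genotype means are given only for the 4326 entries listed in the second table, which had been selected for a nominal p under 0.05 among 7320 that passed an earlier filter, and 4232 of these matched 1 probe set of the larger table by their mean. They make up 12.8% of all probe sets, with 2179 (6.57%) higher and 2053 (6.19%) lower in Alkbh1-/- mESCs. Among the 18 Hox probe sets, 2 had genotype means, or 11.1%, a share close to that of the whole table. A probe set without genotype means may have been removed by the filter, have missed the selection or belong to one of the 94 entries that matched several probe sets or none. For the targeted gene both Alkbh1 probe sets had genotype means, and both were lower in the Alkbh1-/- arrays. The brighter went from 9.57 in WT to 4.69 in Alkbh1-/-, a log2 difference of -4.89, and the other from 6.91 to 5.11, a difference of -1.79. The entries printed under these 2 identifiers, whose means are not those of the probe sets, would give -1.22 and 0.60. Whether these probes lie in the disrupted part of the gene was not examined.

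Hoxc13 (1425874_at) was the Hox gene whose brightest probe set had genotype means. Its mean was 4.53 in WT and 5.24 in Alkbh1-/- on the log2 scale, or 23.1 and 37.8 as linear intensity. The log2 difference was 0.71, and the WT mean lay below the 25th percentile of the table, 4.80. Hoxa3 had genotype means at the dimmer of its 2 probe sets (1427433_s_at), 4.24 in WT and 3.73 in Alkbh1-/-, which are 18.9 and 13.3 as intensity. The log2 difference was -0.51 at a probe set so dim that only 6.18% of the table lay below it. The entry printed under the identifier of this probe set, whose mean is not that of the probe set, would turn the difference to 1.08. The brighter Hoxa3 probe set (1452421_at) had no genotype means. The suffix s in such an identifier marks probes that are shared by several transcripts. Hoxb6 (1451660_a_at), found through RefSeq names, had means of 4.07 in WT and 3.66 in Alkbh1-/-, a difference of -0.41. Only 3.17% of the table lay below the Hoxb6 mean. Hoxb6 takes part in patterning the trunk.

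Thus 1 of these 3 Hox probe sets was higher and 2 were lower in Alkbh1-/- mESCs, and in both genotypes all 3 lay below the median of the table. They were 3 of the 30 Hox probe sets named through RefSeq, and 12.8% of all probe sets had genotype means. Of all probe sets, 6.57% had them with the higher and 6.19% with the lower value in Alkbh1-/-. The means of Hoxa3 and Hoxb6 lie near the low end of the table, and Hoxc13 was dim as well. These probe sets were listed because they had passed the selection for a difference, so their differences are given as a description, with no error or test. For the other 12 of the 14 genes no probe set had genotype means, and their difference between genotypes was not analysed here. That does not show that they were equal.

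HOX proteins bind DNA together with partner homeodomain proteins of the PBC and MEIS families. Of 8 partners described here, 4 lay above the median of the table and 4 below, and 1 of their 17 probe sets, or 5.88%, had genotype means, compared with 12.8% of all probe sets. Pknox2, of the MEIS side, was 6.67 in WT and 7.66 in Alkbh1-/-, a difference of 1.00; its dimmer probe set had none. Meis1, Meis2, Meis3 and Pbx4 lay below the table median and had no genotype means, whereas Pbx2, Pbx3 and Pknox1 lay above it, likewise without them.

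Factors known to switch on Hox genes in the embryo include the caudal proteins, the retinoic acid receptors and the growth factor GDF11. Of 7 such genes 5 were in the table, and Cdx4 and Rarb had no named row. Cdx1, at 6.65, and Rara, at 6.51, lay just above the median of the table, and Cdx2, at 4.55, and Gdf11, at 5.03, below it. Against the median over probe sets with a symbol, 6.85, Cdx1 and Rara too were on the low side. Rarg, a retinoic acid receptor, was the only one of the 5 with genotype means, at 2 of the list's 7 probe sets (28.6%, compared with 12.8% of all probe sets). It was 7.98 in WT and 7.20 in Alkbh1-/- at its brighter probe set and 6.30 and 5.68 at the other, with differences of -0.77 and -0.61.

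Polycomb complexes keep Hox genes silent. All 9 listed Polycomb genes lay above the table median, with a median of 11.44 over the list against 6.31 over the table. Cbx2, at 7.06, lay below the median over 1 probe set per gene, 7.28. Genotype means were given for 7 of the 22 Polycomb probe sets, or 31.8%, compared with 12.8% of all probe sets. Bmi1, a subunit of Polycomb repressive complex PRC1, went from 6.92 in WT to 8.21 in Alkbh1-/- at its brighter probe set and from 5.09 to 6.58 at the other, with differences of 1.28 and 1.50. Suz12, a core subunit of the H3K27 methyltransferase complex PRC2, was higher in Alkbh1-/- by 0.50 to 0.66 at 4 probe sets, and its 2 others, the brightest among them, had no genotype means. Phc1, a PRC1 subunit, was 12.39 in WT and 11.72 in Alkbh1-/-, a difference of -0.68. Ezh2 and Eed, the catalytic and H3K27me3-binding subunits of PRC2, had means of 11.44 and 12.06 over all arrays and no genotype means. Neither did Rnf2, Cbx2, Cbx7 or Jarid2.

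Of the 5 trithorax and MOZ genes, which counteract Polycomb at Hox genes, 4 lay above the table median. Kat6a, which encodes the histone acetyltransferase MOZ, had a mean of 4.99 and lay below it. The dimmer probe set of Wdr5, a shared subunit of the trithorax methyltransferases, was 9.64 in WT and 10.17 in Alkbh1-/-, a difference of 0.53. The brighter of the 2 Wdr5 probe sets had no genotype means. Kmt2a, Men1 and Ash2l had no genotype means, nor did Kat6a, so that 1 of the list's 11 probe sets had them (9.09%, compared with 12.8% of all probe sets).

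Of the 7 neighbours of the clusters in the table, 4 lay above its median and 3 below. Evx1 and Evx2, homeobox genes at the posterior ends of HoxA and HoxD, had means of 4.31 and 5.05 and lay below the table median. Skap2 and Snx10, on the other side of HoxA, had means of 9.72 and 9.13, and Mtx2 and Lnpk, which flank HoxD, had 9.86 and 8.16. Calcoco1, next to HoxC, had a mean of 5.08, also below the median, and Skap1 had no named row. Genotype means were given for 0 of their 12 probe sets, compared with 12.8% of all probe sets.

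**Figure D3:**
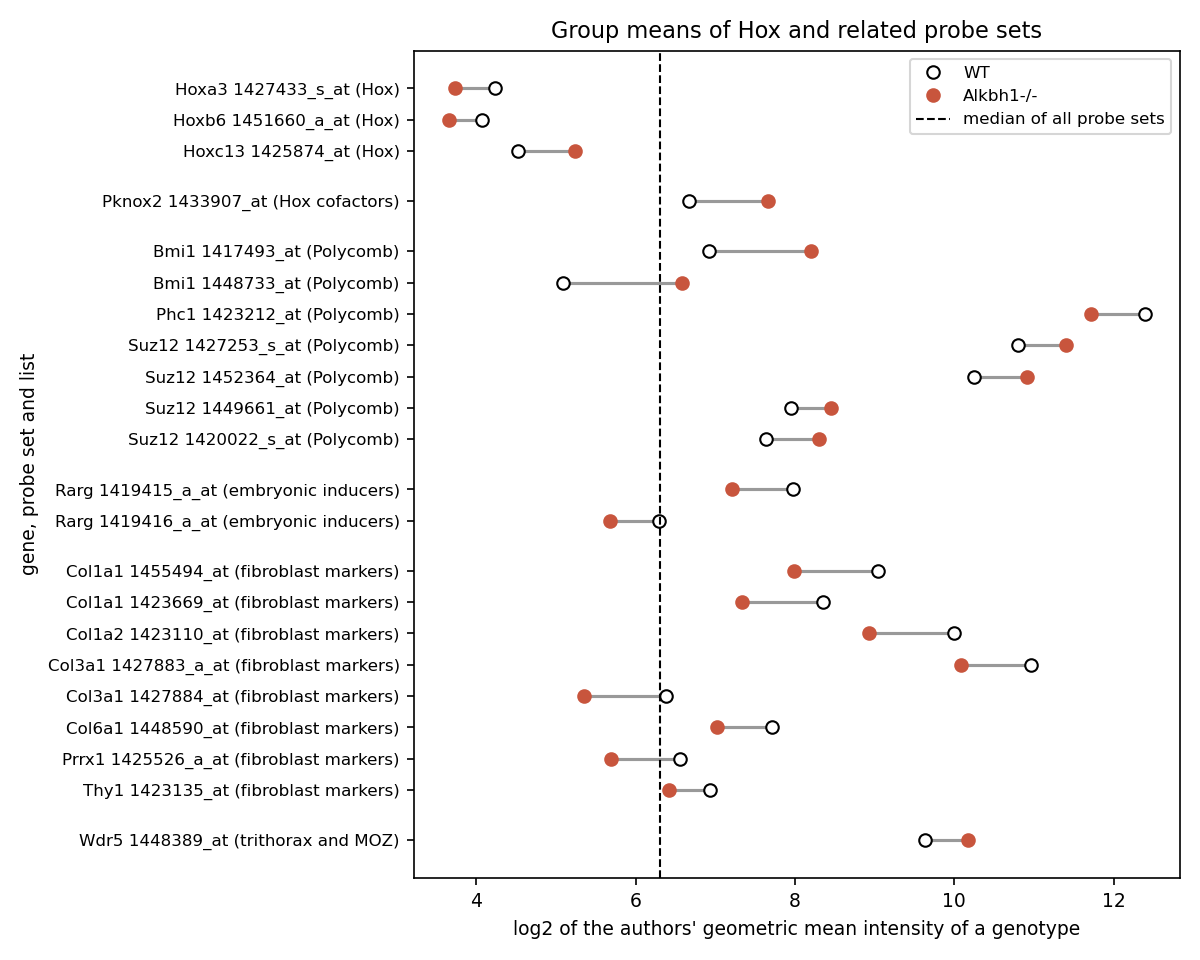
Genotype means (horizontal axis, log2 of the authors' geometric mean intensity) for the probe sets of Hox genes, Hox partners, regulators and fibroblast markers that had them, with WT as open points and Alkbh1-/- as filled points and no error available. The 3 Hox probe sets lie left of the dashed table median in both genotypes, Hoxc13 with the higher value in Alkbh1-/- and Hoxa3 and Hoxb6 in WT, and the 8 fibroblast probe sets all have the higher value in WT.

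The cells carried the markers of their label. All 8 embryonic stem cell markers lay above the table median, among them Pou5f1 at 12.64 and Sox2 at 12.66. Genotype means were given for 7 of their 12 probe sets, or 58.3%, compared with 12.8% of all probe sets. Of these 8 markers 4 had genotype means, with Nanog, Esrrb and Zfp42 higher in Alkbh1-/- and Utf1 higher in WT; the difference of Nanog was 1.10.

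The feeder layer consisted of fibroblasts, cells known to keep expressing the Hox genes of the body region they came from. Of 12 fibroblast markers, 9 lay above the table median, the brightest being Col1a2 at 11.82, while Twist1, Twist2 and Lum lay below it. Genotype means were given for 8 of the 20 fibroblast probe sets, of 6 genes, and all 8 had lower means in Alkbh1-/- arrays, with log2 differences from -1.06 to -0.52. Of all probe sets, 12.8% had genotype means and 6.19% had them with the lower value in Alkbh1-/-. Col1a1, a fibrillar collagen, was 9.04 in WT and 7.98 in Alkbh1-/-, and Prrx1, a mesenchymal transcription factor, was 6.56 and 5.69 at 1 of its 5 probe sets, with no genotype means at the other 4, the brightest included. Summed over the 8 probe sets, the intensity was 4387 in WT and 2298 in Alkbh1-/-, but these were listed for a difference, and the sums leave out the other 12, the brightest Col1a2 probe set among them. The other 6 markers, Dcn, Lum, Postn, S100a4, Twist1 and Twist2, had no genotype means. The listed probe sets of Hoxa3 and Hoxb6 had lower means in Alkbh1-/- arrays, as these 8 fibroblast probe sets did, and that of Hoxc13 had a higher one. The part of feeder RNA in the Hox levels and in these differences was not tested, and fewer cells of a type cannot be told apart from less RNA per cell in such bulk samples.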

How the data were processed

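Total RNA of 6 mESC samples (3 WT, 3 Alkbh1-/-) was hybridised to Affymetrix mouse whole-genome 3′ expression arrays. Signals came from GCOS 1.4 per the study's methods, and the authors normalized all arrays together by RMA, per their processing notes. The authors deposited the log2 mean over all arrays for 33142 probe sets, by a filter not given in the sources used here, and a class comparison with the geometric mean intensity of each genotype for 4326 entries. The WT class is misnamed there and was read as the accompanying description says. The authors' own fold changes, test statistics and p-values in both tables were not used.

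Entries were matched to probe sets where the mean of their log2 genotype means equalled a deposited log2 mean within 1e-06 and for 1 probe set only. Of 4326 entries, 4232 matched, 29 matched several and 65 none. Identifiers printed beside the entries were not used, since 8 of 4261 had the mean of their own probe set. The match was also run on 4000 entries simulated from the deposited means, of which 3957 matched 1 probe set. Each simulated entry had its own probe set within the tolerance, so a wrong match could not arise there. That run therefore does not measure how often a real entry matched a wrong probe set. A limma fit had been designed for single arrays and was not run. Rows were named by deposited symbol for Hox genes. For other lists and the added Hox genes they were named through RefSeq by gene ID, accession, symbol or synonym (84.4% of rows). Rows with conflicting names, 240 in all, were left unnamed. Every Hox gene and every listed gene was eligible to be named; 1 of the 14 Hox genes, kept in the counts, and 1 listed gene, left out of them, are not reported here. The Hox genes and all lists were chosen with earlier results of these data known. Python 3.11.15, pandas 2.3.3, numpy 2.4.6 and matplotlib 3.10.9 were used.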

Additional observations from a re-analysis of the deposited data

How the results depend on the processing

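With the dimmest probe set of each gene, or the mean over its probe sets, 13 of 14 Hox genes were again below the table median, and the median of the Hox genes moved from 5.13 to 4.87 and 5.02. With the median taken over 1 probe set per gene (7.28) or over probe sets with a symbol (6.85), all 14, or 100%, were below it, Hoxc9 included. The counts of the other lists use the median over all probe sets. Of the listed genes counted above it, Pknox2, Cdx1, Rara, Cbx2, Prrx1, Dcn and Thy1 lay below 7.28. Cdx1, Rara and Thy1 also lay below 6.85. RefSeq names gave 21 of 22 below, 95.5%, and a Hox median of 5.11. A 10 times stricter match kept 3567 entries and the same values for Hoxc13 and Hoxa3. Read by the identifier printed beside an entry, an alternative chosen after seeing the data, the Hoxa3 difference turned from -0.51 to 1.08 and that of Hoxc13 went from 0.71 to 0.63; these entries have means of 6.00 and 7.76, whereas the probe sets have 3.98 and 4.88. No paired analysis was possible because single-array signals were not used here, and for the same reason no array was left out in turn, no limma fit was run and no value has a replicate error. Means close to the low end of the table cannot separate weak from absent transcripts.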

Other observations

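Of 4261 identifiers printed beside entries of the class comparison, 8 had the mean of their own probe set. The others do not go with their values, which bears on anyone looking up a Hox gene there. For Alkbh1, the entries under its 2 identifiers give log2 differences of -1.22 and 0.60, whereas the entries that match its probe sets by mean give -4.89 and -1.79. For Hoxb6 the printed entry has intensities of 22.3 in WT and 16.4 in Alkbh1-/-, and the matched one 16.8 and 12.6. For Hoxa3 the printed entry has 44.0 in WT and 93.2 in Alkbh1-/-, and the matched one 18.9 and 13.3. For Hoxc13 the printed entry has 174 in WT and 270 in Alkbh1-/-, and the matched one 23.1 and 37.8.

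RefSeq names also gave Hoxd13 a brighter probe set, at 4.57, than the one with its symbol, at 4.42. Hoxb2 and Hoxd8, known by old names in the table, each had 2 probe sets, at 5.17 and 4.03 and at 5.42 and 4.19.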
